A study of Mus musculus with 14 samples.

Results

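The genes described here are 10 neighbours of Cd40 on mouse chromosome 2: Serinc3, Ttpal, Ada, Pkig, Ywhab, Tomm34, Stk4, Ctsa, Pltp and Ncoa5. They were taken by symbol from a table of 23420 genes, and each lies within 1.5 Mb of Cd40. They were chosen by their position and by the low levels of Serinc3 and Ttpal in libraries of Cd40-null mice, so comparisons with those libraries are given as descriptions, with no p-value for a member. P-values are given for biotin-positive against biotin-negative libraries, a comparison that the choice did not use, although its results were known. All 10 passed the filter on low counts, as did 14217 genes of the table.

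Polyadenylated RNA was sequenced from 150 sorted dendritic cells (DCs) per library, in a LIPSTIC experiment, where T cells bearing the enzyme sortase A mark the cells they touch by attaching biotinylated peptide to a pentaglycine (G5) tag. All cells were endogenous popliteal lymph-node DCs of C57BL/6 background, high in MHC class II, CD11c+ CD11b+ and negative for XCR1. The 6 biotin-positive and 6 biotin-negative libraries came from mice with G5-tagged CD40, labelled G5-Cd40+/+ (Cd40G5/G5 in the protocol). These mice received Cd40G5/G5 DCs pulsed with an ovalbumin peptide and then OT-II CD4 T cells carrying CD40lgSrtA/Y and CD4-Cre, a Cre driver of the T cell lineage that acts in the donor cells. The 2 Cd40-null libraries came from Cd40-/- mice that received DCs and OT-II T cells that were both wild type, so the effects of genotype and of the transferred cells cannot be told apart. They were not split by biotin. All 3 groups received peptide-pulsed DCs, T cells and the biotin substrate, and nodes were taken 48 hours after T cell transfer. Whether each library is a different mouse is not in the labels, and p-values therefore cover the spread of these libraries only, which may be technical.

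Genes that lie close to a targeted allele are inherited with it. An allele made in embryonic stem cells of one strain and crossed onto another stays flanked by chromosome of the first strain until recombination removes it, so neighbours of a null allele can carry other sequence variants than in control mice. The labels give C57BL/6 for every group, and the strain in which the null allele was made is not given in the sources used here. The count tables hold no genotypes, so whether the null mice carried such a segment was not tested.

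Total counts ran from 14518099 to 33260704 per library. Levels below are CPM, counts scaled to a common library total after adjusting the totals by the trimmed mean of M values (TMM). Cd40 checked the labels: it stood at 74.2 and 53.3 CPM in the null libraries, under the lowest biotin-sorted library (386 CPM). The DC markers Flt3, Zbtb46, Ccr7, Fscn1 and Cd74 were present in every library. Itgam, which encodes CD11b, averaged 1.91 CPM in biotin-positive, 25.3 in biotin-negative and 14.7 in null libraries. Genes with at least 1 count numbered 13090 to 13455 in biotin-positive, 14225 to 15742 in biotin-negative, and 13596 and 13113 in null libraries. The biotin groups did not overlap in this number.

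All 10 genes lie at lower coordinates than Cd40, which spans chr2:165055614-165071654 (build mm10, positions from RefSeq on GRCm38.p6). Ttpal (chr2:163602285-163619013, plus strand) and Serinc3 (chr2:163623273-163645149, minus strand) are the farthest, with gaps of 1.44 and 1.41 Mb to the body of Cd40. They are adjacent and end tail to tail, 4259 bp apart. Pkig begins 13061 bp beyond Serinc3 and Ada 412 bp beyond Pkig. Ywhab, Tomm34 and Stk4 follow at gaps of 1.04, 0.984 and 0.900 Mb from Cd40. Ctsa and Pltp lie 215 and 198 kb away. Ncoa5 is the nearest, 20.7 kb from Cd40. Within 1.5 Mb on either side the reference lists 116 genes, of which 78 had a row in the table and 38 were tested: the 10 members and 28 others.

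Upstream sequences were found for 8 of the 10 genes in RefSeq (GRCm38.p6), all but Ttpal and Ywhab. Those of 4 genes are shown: Serinc3, low in null libraries, and Tomm34, Ctsa and Pltp, which differed between the biotin groups. Pkig, which was also called between them, is not shown. Each sequence is the stretch just before a transcription start, 5' to 3' on the gene's own strand. Capitals mark the GC box, GGGCGG or its reverse complement CCGCCC. The Serinc3 stretch is chr2:163645144-163645393 (minus strand), Tomm34 chr2:164071170-164071419 (minus), Ctsa chr2:164832622-164832871 (plus) and Pltp chr2:164857712-164857958 (minus).
Serinc3: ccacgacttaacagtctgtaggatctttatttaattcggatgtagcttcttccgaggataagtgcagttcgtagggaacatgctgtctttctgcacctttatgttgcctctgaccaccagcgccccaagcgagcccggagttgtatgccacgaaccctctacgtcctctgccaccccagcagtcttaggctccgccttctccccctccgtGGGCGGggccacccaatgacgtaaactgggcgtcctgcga
Tomm34: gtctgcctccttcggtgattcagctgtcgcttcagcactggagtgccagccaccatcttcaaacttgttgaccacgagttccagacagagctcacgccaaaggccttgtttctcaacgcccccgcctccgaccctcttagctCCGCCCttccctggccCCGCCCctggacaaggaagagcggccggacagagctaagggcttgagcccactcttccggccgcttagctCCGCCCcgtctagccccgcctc
Ctsa: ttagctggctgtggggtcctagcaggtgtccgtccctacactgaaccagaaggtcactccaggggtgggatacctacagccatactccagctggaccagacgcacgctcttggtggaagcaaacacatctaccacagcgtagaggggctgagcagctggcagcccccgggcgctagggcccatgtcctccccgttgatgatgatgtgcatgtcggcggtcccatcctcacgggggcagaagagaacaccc
Pltp: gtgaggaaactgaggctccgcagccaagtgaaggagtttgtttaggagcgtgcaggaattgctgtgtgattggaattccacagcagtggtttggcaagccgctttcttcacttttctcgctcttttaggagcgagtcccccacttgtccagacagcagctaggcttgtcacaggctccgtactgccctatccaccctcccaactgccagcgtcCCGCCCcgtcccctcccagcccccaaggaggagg
Serinc3 and Pltp have 1 GC box each in these letters, Tomm34 has 3, and the Ctsa stretch holds none. Over 32851 upstream sequences of 250 bases, 32.7% hold the motif on either strand. Of the 250 Ctsa bases, 173 are coding sequence of an overlapping gene on the other strand, Neurl2. The Serinc3 stretch lies within an unnamed noncoding locus on the other strand, 0610039K10Rik, which overlaps Serinc3 by 300 bp. Such matches describe letters only.

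Serinc3 encodes a membrane protein of the serine incorporator family, members of which reduce the infectivity of retroviruses. It was at 254.0 and 259.7 CPM in the null libraries. The biotin-positive libraries ran from 407 to 597 CPM (median 548) and the biotin-negative from 519 to 766 CPM (median 676). Both null libraries lay below all 12 biotin-sorted libraries, which is true of 2.05% of all genes tested. Means were 529 ± 77.4 CPM in biotin-positive, 672 ± 93.5 in biotin-negative (SD, n = 6 each) and 257 ± 3.99 in null libraries (SD, n = 2). Relative to null libraries, the level in biotin-positive libraries was 2.06-fold higher, a log2 difference of 1.04 (SE 0.17). In biotin-negative libraries it was 2.62-fold higher, a log2 difference of 1.39 (SE 0.17).

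Ttpal encodes a protein of the CRAL-TRIO family, relatives of which carry small lipids such as vitamin E and retinoids. Its level was 29.7 CPM in null replicate 1 and 16.7 CPM in null replicate 2. Biotin-positive libraries ran from 40.2 to 61.6 CPM (median 48.1) and biotin-negative libraries from 29.1 to 51.0 CPM (median 44.7). Null replicate 1 was just above the lowest biotin-negative library, replicate 2, so these groups touch. Means were 49.2 ± 7.14, 43.7 ± 7.71 (SD, n = 6 each) and 23.2 ± 9.20 CPM (SD, n = 2). The log2 difference was 1.08 (SE 0.27) from biotin-positive and 0.91 (SE 0.26) from biotin-negative to null libraries. Without null replicate 1 it was 1.56 and 1.39, and without null replicate 2 it was 0.73 and 0.55. The size of the Ttpal difference thus rested on which null library was kept, whereas that of Serinc3 stayed between 1.00 and 1.11 against biotin-positive libraries with any 1 library left out.

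**Figure D1:**
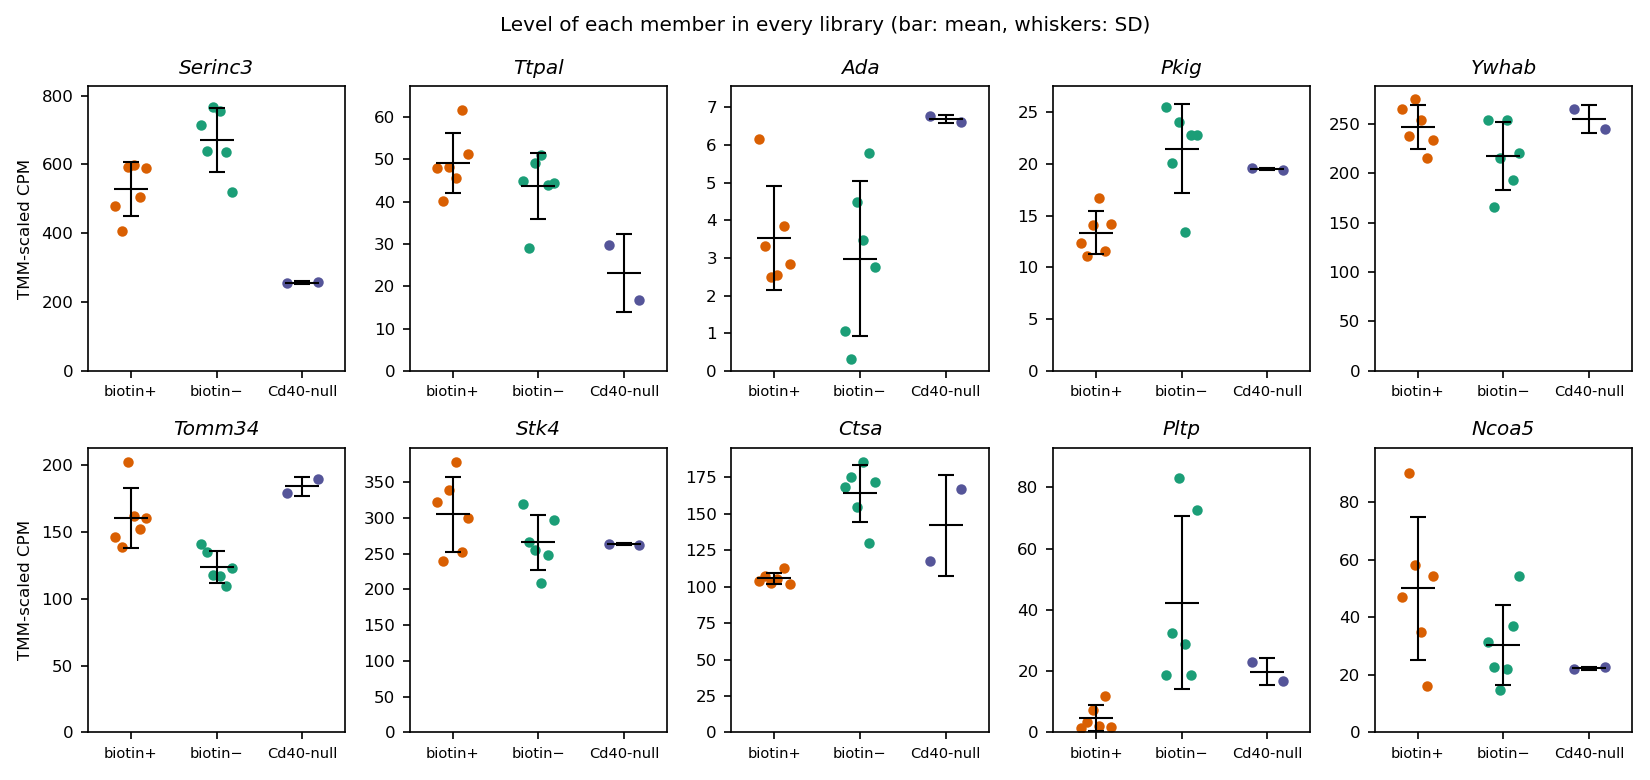
Level of each of the 10 genes in every library, as TMM-scaled CPM on the vertical axis, by group (6 biotin-positive, 6 biotin-negative, 2 Cd40-null). Points are libraries. For Serinc3 both null points (254.0 and 259.7 CPM) lie under all others, and for Ttpal 1 null point (29.7 CPM) lies beside the lowest biotin-negative library.

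In the other 8 genes, no null library lay below all 12 biotin-sorted libraries. Ada encodes adenosine deaminase, which converts adenosine to inosine. It was above all biotin-sorted libraries in the null ones, at 6.76 and 6.61 CPM against 0.317 to 6.16 CPM, a place shared by 1.5% of genes tested. These are low levels, between 8 and 168 counts a library. The remaining 7 genes were within the range of the 12 biotin-sorted libraries. Pkig, a protein kinase A inhibitor, is the next named gene along from Serinc3. It was at 19.6 and 19.4 CPM in null libraries, inside a range of 11.1 to 25.5 CPM. Ywhab, a 14-3-3 adaptor protein that binds phosphorylated partners, was at 264 and 244 CPM, inside 166 to 275 CPM. Stk4, the Hippo pathway kinase also called MST1, was at 264 and 262 CPM, inside 209 to 378 CPM.

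Nearer to Cd40, Ncoa5, a coactivator of nuclear receptors, was at 21.9 and 22.6 CPM in null libraries. It varied widely in the other groups, from 16.1 to 90.0 CPM in biotin-positive and from 14.9 to 54.2 CPM in biotin-negative libraries. The null values of the gene nearest to the targeted locus were therefore inside both ranges. The mean of Ncoa5 was still lowest in null libraries. Its log2 difference was 1.17 (SE 0.52) for biotin-positive and 0.45 (SE 0.50) for biotin-negative minus null libraries. Both are in the direction of Serinc3 and Ttpal, and neither was called. Tomm34, Ctsa and Pltp were inside the joint range as well, and their values are given below.

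By the test used for all genes (edgeR quasi-likelihood, false discovery rate of 0.05), 2 of the 10 genes were called between biotin-positive and null libraries, Serinc3 and Ttpal, both higher than in null libraries, with 2.27% of all genes called (1.22% higher and 1.05% lower). Between biotin-negative and null libraries 1 was called, Serinc3, also higher, with 0.317% of all genes called (0.274% higher and 0.0422% lower). Because the null libraries chose the members, nothing is read from these counts. Against biotin-positive libraries, the Ttpal call held under 5 of 8 other settings. With 1 biotin-sorted library left out, it held only without biotin-positive replicate 2 or biotin-negative replicate 2. The Serinc3 call held under all 8 and with any 1 biotin-sorted library left out. Neither statement on left-out libraries covers the null ones, where leaving 1 out leaves 1 in that group. For these 2 genes only log2 differences are given for those fits, within 1.00 to 1.11 for Serinc3. The 2 comparisons share the null libraries. Log2 differences of the 8 others ran from -2.07 (Pltp) to 1.17 (Ncoa5) for biotin-positive minus null. For biotin-negative minus null they ran from -1.16 (Ada) to 1.10 (Pltp). In the first, 2 members lay wholly above the null libraries and 4 wholly below, with 15.9% of all genes tested not overlapping (7.81% above and 8.07% below). In the second, 1 lay above and 2 below, with 10.7% not overlapping (6.23% above and 4.47% below).

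None of the 28 other tested genes within 1.5 Mb was called in either comparison with the null libraries. That 0 is by edgeR. Of the 28, 3 had an unadjusted p under 0.05 for biotin-positive and 5 for biotin-negative against null libraries. Over all 14217 genes tested these numbers were 1963 and 1311. DESeq2 called 2 and 1 of the 28 (791 and 273 of all genes), Ncoa3 in both, and limma voom 1 and 0 (603 and 53). The other gene of DESeq2 and the 1 of limma voom was the unnamed locus 5031425F14Rik, for biotin-positive against null libraries. It averaged 1.97 CPM in biotin-positive and 0 in null libraries. The rule for named genes takes genes from each side of the null level. That both signs occur below was therefore fixed by the rule, and their split does not describe the window. For biotin-positive minus null libraries the values were 0.41 (log2, SE 0.20) for Sdc4, a cell-surface proteoglycan, 0.72 (SE 0.40) for Zswim1, 0.07 (SE 0.31) for Prex1 and 0.02 (SE 0.32) for Dbndd2. Below 0 were Ncoa3, a nuclear receptor coactivator (-0.56, SE 0.17), Sys1 (-0.82, SE 0.29), Zmynd8, a chromatin reader (-0.41, SE 0.26), and Sulf2, a heparan sulfate sulfatase (-0.45, SE 0.31). Ncoa3 and Sys1 were above all 12 biotin-sorted libraries in both null libraries, and no gene but Serinc3 in this window was below them. The median log2 difference of the 28 genes was -0.18 for biotin-positive and 0.11 for biotin-negative minus null, beside 0.04 and 0.06 over all genes tested but Cd40. Their median size of difference regardless of sign was 0.45 and 0.49, beside 0.44 and 0.39.

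Just beyond the window on the far side of Ttpal, Fitm2, which acts in lipid droplet formation, was the nearest tested gene. It was too low to place, at a mean of 1.60 CPM in biotin-positive, 2.83 in biotin-negative and 1.57 in null libraries. Between 1.5 and 5 Mb from Cd40, 0 of 36 tested genes were called in either comparison with null libraries, and between 5 and 10 Mb 0 of 90 (edgeR). At an unadjusted p under 0.05 there were 8 and 7 of the 36 and 10 and 6 of the 90, beside 1963 and 1311 of all 14217. DESeq2 called 2 and 1 of the 36 and 0 of the 90, beside 791 and 273 of all. Between 10 and 20 Mb edgeR called 1 and 0 of 157. Further out on chromosome 2 beyond 20 Mb its counts were 26 and 2 of 792, and on other chromosomes 292 and 41 of 12991.

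**Figure D2:**
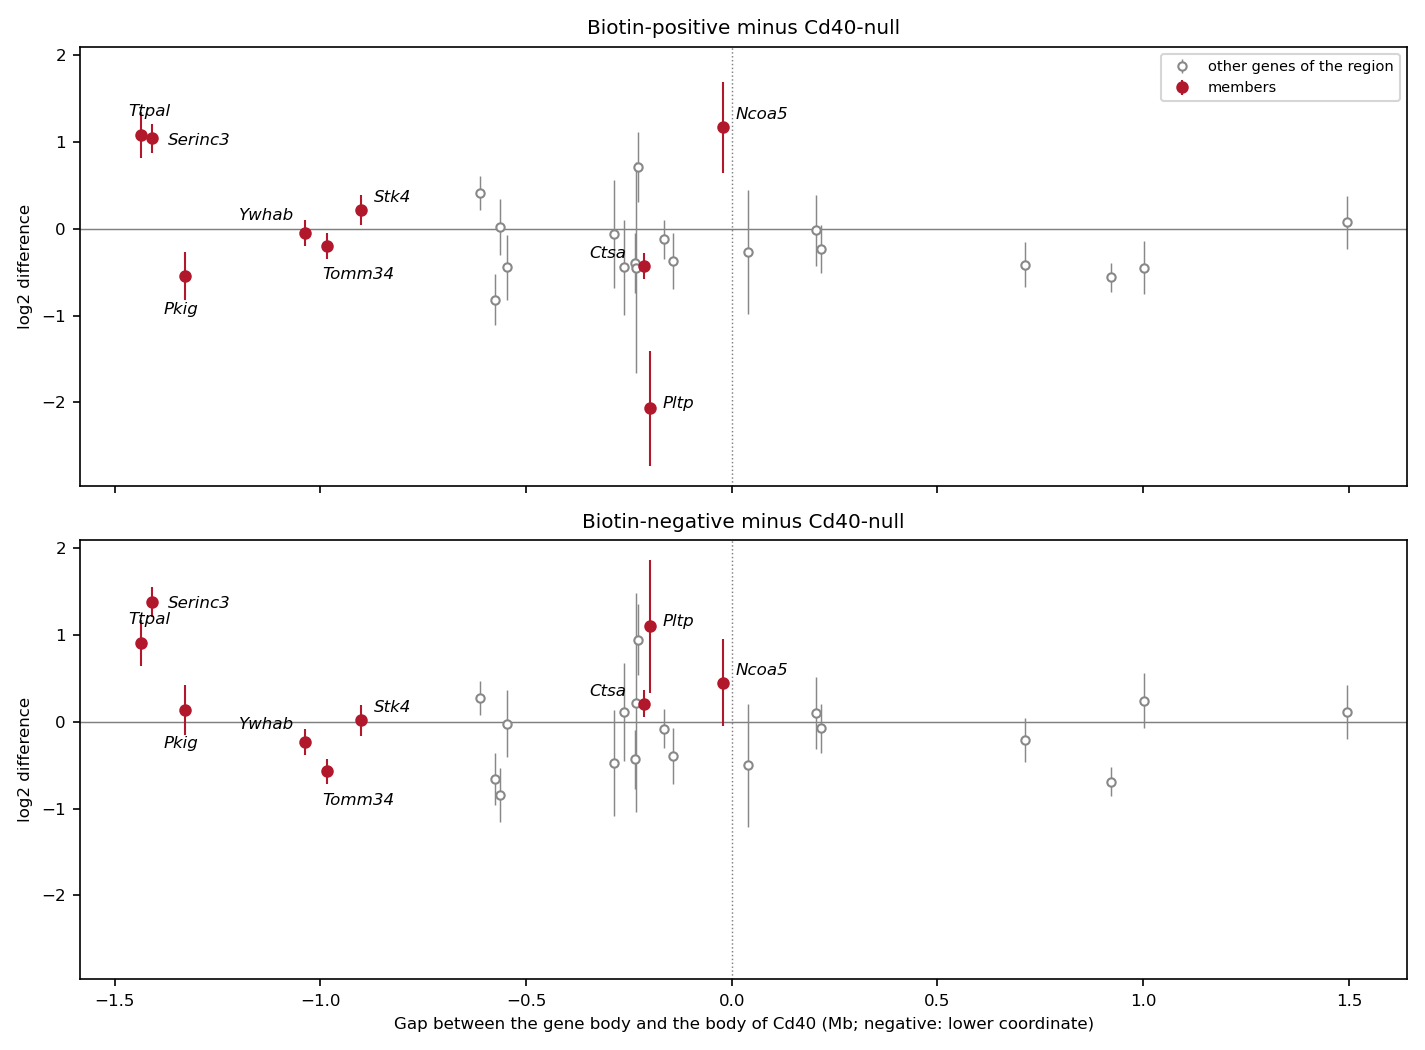
Log2 difference between biotin-sorted and Cd40-null libraries against distance from Cd40 in Mb, for tested genes of the region at a mean of 5 CPM or more. Bars are SE. Serinc3 (1.04 and 1.39) and Ttpal (1.08 and 0.91) sit together at the left end, and genes between them and Cd40 lie on both sides of 0.

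Across the 14 libraries, Serinc3 and Ttpal correlated with a Pearson r of 0.68 (log2 CPM, n = 14), a value that includes the low null libraries. Within the 12 biotin-sorted libraries r was -0.003. The libraries share depth and preparation, and these values are descriptions. Among 9381 genes at 5 CPM or more, those most like Serinc3 were Strip2 (r = 0.97), Nup88 (0.91), Adam17 (0.88), Adam9 (0.88) and Ushbp1 (0.87). Those most like Ttpal were Zbtb1 (0.93), the costimulatory gene Cd86 (0.89), Naa50 (0.88), Dr1 (0.87) and Samsn1 (0.87). Each of these 10 lies on another chromosome. In the 12 biotin-sorted libraries r with Serinc3 was 0.90 for Strip2 and 0.20 for Ushbp1.

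The comparison of the biotin groups set DCs that T cells had marked with the biotinylated peptide beside DCs of the same genotype without that mark. Of the 10 genes, 4 were called in it: Tomm34 was higher, and Pkig, Ctsa and Pltp were lower in biotin-positive libraries. Of all genes tested, 7.75% were called, 3.7% as higher and 4.05% as lower. Of the 28 other genes of the window, edgeR called 1, Dbndd2, while DESeq2 called 4 and limma voom 3. Dbndd2, Sulf2 and the unnamed locus 5031425F14Rik were in both. DESeq2 called 5 of the 10 members, with Serinc3 added, and limma voom 3, without Pkig. Of all 14217 genes tested, DESeq2 called 1570 (722 higher and 848 lower) and limma voom 1278 (626 and 652). The members were chosen with results of these libraries known, so their share is a description.

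Pltp encodes a phospholipid transfer protein of plasma lipoproteins and is made by macrophages among other cells. In biotin-positive libraries it ran from 1.53 to 11.9 CPM (median 2.69), and in biotin-negative libraries from 18.7 to 83.1 CPM (median 30.6). The groups did not overlap, as for 5.02% of all genes tested (2.6% with biotin-positive libraries above and 2.41% with them below), and the null libraries, at 22.9 and 16.6 CPM, were above all biotin-positive ones. Means were 4.65 ± 4.17 and 42.4 ± 28.2 CPM (SD, n = 6 each). The log2 difference was -3.17 (SE 0.55; 9.01-fold lower, edgeR adjusted p = 0.00152).

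Ctsa encodes cathepsin A, a lysosomal carboxypeptidase that also protects the lysosomal enzymes encoded by Neu1 and Glb1. It was narrow in biotin-positive libraries, from 102 to 112 CPM (median 104), and ran from 130 to 185 CPM (median 170) in biotin-negative libraries. These ranges did not overlap either, which made 2 of the 10 genes with biotin-positive libraries wholly below and 0 wholly above. Null libraries were at 117 and 167 CPM. The log2 difference was -0.64 (SE 0.11; 1.55-fold lower, edgeR adjusted p = 0.00135). Ctsa and Pltp overlap by 1515 bp on opposite strands, and the preparation does not mark strand, so reads from there cannot be told apart. A mean of 2824 counts a library was assigned to Ctsa and 484 to Pltp.

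Markers of several cell types differed between the same groups. Of 9 DC markers, 4 were lower and 1 higher in biotin-positive libraries. The antigen presentation genes H2-Ab1 and Cd74 averaged 229.7 against 1245 CPM and 920.2 against 2743 CPM, and Itgax, which encodes CD11c, 55.5 against 139 CPM, with Itgam the fourth. Fscn1, an actin-bundling gene of mature DCs, was the higher one, at 7172 against 3185 CPM. Of 11 monocyte and macrophage markers, 10 were in the table, and 6 of these were lower and 0 higher in biotin-positive libraries by edgeR (9 lower and 0 higher at an unadjusted p under 0.05, 7 and 0 by DESeq2). Over all 14217 genes tested, 2993 had such a p in either direction, and DESeq2 called 848 lower and 722 higher. The summed level of the 10 was 81.8 to 217 CPM in biotin-positive, 192 to 1172 CPM in biotin-negative, and 432 and 232 CPM in null libraries. The mannose receptor gene Mrc1 was at 0 in all biotin-positive and null libraries, and averaged 4.73 CPM in biotin-negative ones. The Langerhans cell markers were opposite in sign, with 2 of 3 called higher and sums of 215 to 293 CPM in biotin-positive against 30.6 to 105 CPM in biotin-negative libraries. The part of these 3 sets of markers in the Pltp and Ctsa differences was not tested. In sorted pools of cells, fewer cells of a type and less RNA per cell cannot be told apart.

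**Figure D3:**
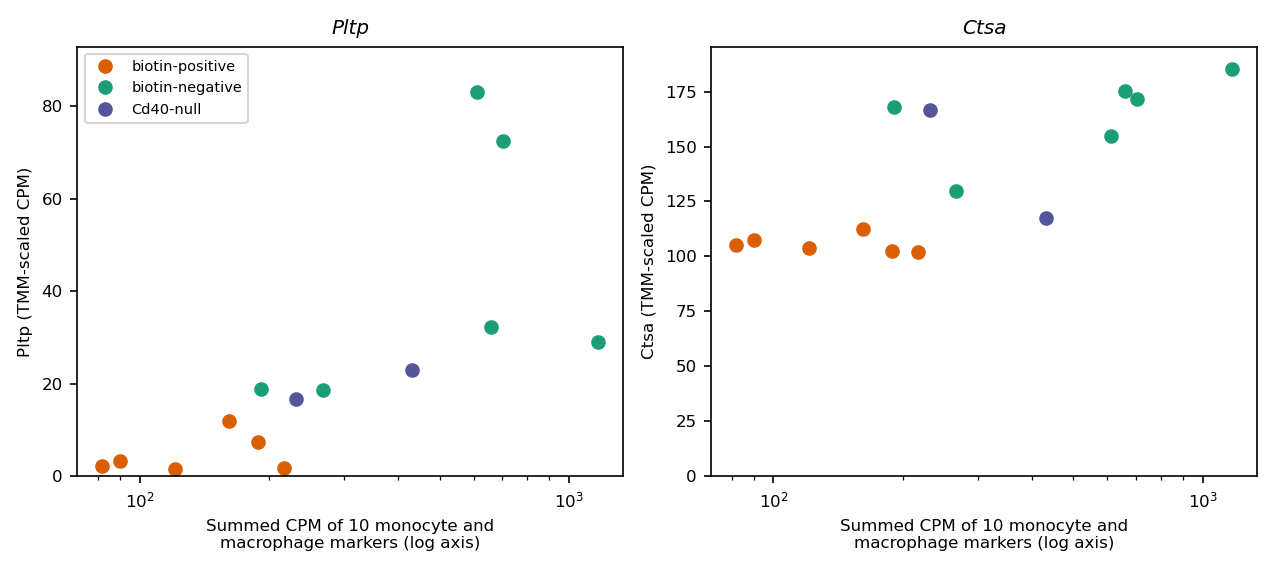
Levels of Pltp and Ctsa (TMM-scaled CPM, vertical axes) against the summed level of 10 monocyte and macrophage markers (log axis) in each of 14 libraries, coloured by group. The biotin-positive libraries sit at the lower left in both panels, at sums of 81.8 to 217 CPM, and the null libraries, at 232 and 432 CPM, lie among the biotin-negative ones on the horizontal axis.

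Pkig was at 11.1 to 16.7 CPM (median 13.2) in biotin-positive and 13.4 to 25.5 CPM (median 22.8) in biotin-negative libraries. The ranges overlap through biotin-negative replicate 4, the lowest of its group. The log2 difference was -0.68 (SE 0.20; edgeR adjusted p = 0.0496), next to the threshold. With 1 library left out in turn, the call held only without biotin-positive replicate 4 (adjusted p = 0.0463) or biotin-negative replicate 4 (0.0179), and was lost without any of the 12 others (0.0632 to 0.104).

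Tomm34 encodes a cytosolic cochaperone for proteins bound for mitochondria. It was at 139 to 202 CPM (median 156) in biotin-positive and 109 to 141 CPM (median 120) in biotin-negative libraries. The ranges touch, since the lowest biotin-positive library is under the highest biotin-negative one. The log2 difference was 0.37 (SE 0.11; 1.29-fold higher, edgeR adjusted p = 0.0385). The call was lost without biotin-positive replicate 3, 4 or 6, biotin-negative replicate 3, 4, 5 or 6, or either null library, with adjusted p of 0.0547 to 0.0936. Null libraries were at 179 and 189 CPM, both above all biotin-negative libraries.

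The other 6 genes did not pass the test. Serinc3 was nearest, with a log2 difference of -0.35 (SE 0.11; edgeR adjusted p = 0.0706), and it passed by DESeq2 (adjusted p = 0.0248). The values were 0.72 (SE 0.35) for Ncoa5, 0.25 (SE 0.60) for Ada, 0.20 (SE 0.12) for Stk4, 0.18 (SE 0.11) for Ywhab and 0.17 (SE 0.18) for Ttpal. Their adjusted p ran from 0.248 (Ncoa5) to 0.887 (Ada).

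**Figure D4:**
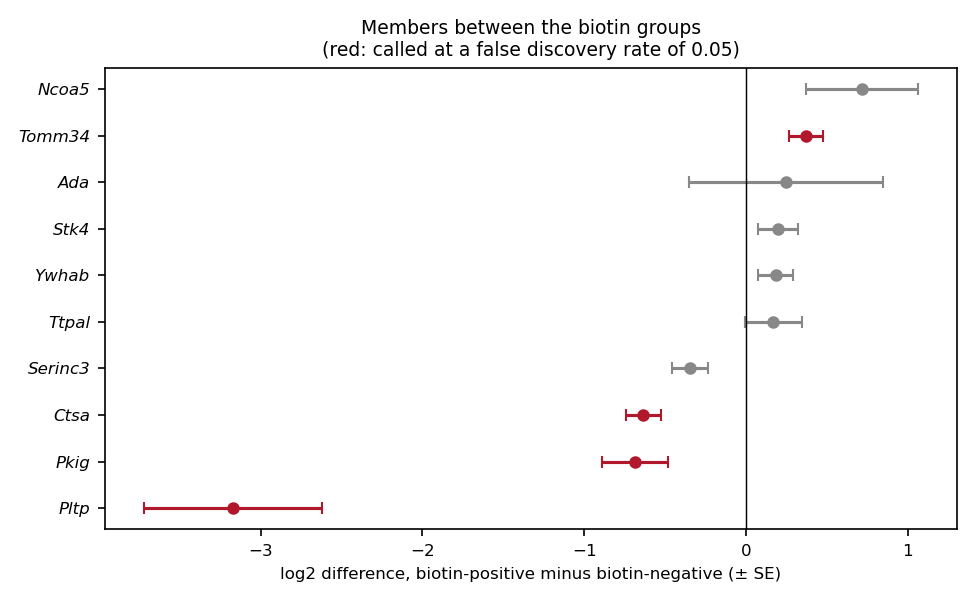
Log2 difference between biotin-positive and biotin-negative libraries (6 each) for the 10 genes, with SE as bars, and genes called at a false discovery rate of 0.05 in red. Pltp stands far to the left at -3.17, and the 3 other called genes lie between -0.68 and 0.37.

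With the number of detected genes per library as a covariate, none of the 4 calls held (edgeR adjusted p = 0.281 for Ctsa, 0.331 for Pltp, 0.623 for Tomm34 and 0.787 for Pkig), while log2 differences were -0.72, -2.95, 0.39 and -0.50. That number does not overlap between the biotin groups, and 11 genes in all were called in this fit. Its part in the differences was not tested.

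Dbndd2 was higher in biotin-positive libraries, at 26.2 ± 4.24 against 14.4 ± 4.87 CPM (SD, n = 6 each; log2 0.86, SE 0.23, edgeR adjusted p = 0.0281). The call was lost without biotin-positive replicate 1, 2, 3 or 6 or biotin-negative replicate 2, 3, 5 or 6 (adjusted p of 0.0504 to 0.0625), and with the covariate (0.344). Its null libraries were at 27.8 and 23.9 CPM. Among named genes of the window at a mean of 5 CPM or more, the next by p were Sulf2 (log2 -0.69, SE 0.22), Pigt (-0.42, SE 0.27) and Snx21 (-0.56, SE 0.40). Sulf2 passed by DESeq2 (adjusted p = 0.0166) but not by edgeR (0.0671), and Pigt and Snx21 passed by neither. Slc12a5, under that level at a mean of 1.36 CPM, was nearer to the threshold than both by edgeR (adjusted p = 0.0993) and was called by DESeq2.

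Compared per kilobase of exon, in CPM per kb, Serinc3 was the most abundant of the 10 in biotin-negative libraries, at 175 ± 24.3 (SD, n = 6). Ywhab followed at 64.1 ± 10.2. Stk4 (45.4 ± 6.62), Tomm34 (40.7 ± 3.96) and Ctsa (34.8 ± 4.16) came next, and neighbours among these 3 differed by less than their summed SD. Pltp was at 16.5, and its distance from Ctsa, but not from Ttpal, was larger than their summed SD. Ttpal was at 7.35 ± 1.29, Ncoa5 at 6.94 ± 3.20, Pkig at 5.37 ± 1.08 and Ada at 1.49 ± 1.03. Ttpal, Ncoa5 and Pkig are within their spreads of each other. In null libraries Serinc3 was at 66.9 ± 1.04 and Ywhab at 75.2 ± 4.16 CPM per kb (SD, n = 2), so Serinc3 no longer led. In biotin-positive libraries Pltp and Ada were level, at 1.82 ± 1.63 and 1.76 ± 0.69 CPM per kb.

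Relatives of the 10 by sequence or role were described for comparison: 38 genes, all in the table, of which 34 were tested. Between the biotin groups edgeR called 1 higher and 1 lower, with 6 at an unadjusted p under 0.05. DESeq2 called 4: Mob1a, Adk, Abca1 and Rlbp1. Of all 14217 genes tested, edgeR called 1102 between these groups, 2993 had such a p, and DESeq2 called 1570. Of the relatives, edgeR called 0 in either comparison with null libraries (5 and 2 at an unadjusted p under 0.05, and 2 and 1 by DESeq2). Over all genes tested, edgeR called 323 and 45, 1963 and 1311 had such a p, and DESeq2 called 791 and 273. Ncoa3 was among the relatives called by DESeq2 in both comparisons with null libraries. It lies 0.92 Mb from Cd40, so it is also counted above among the other genes of the window. The serine incorporators Serinc1 and Serinc5 averaged 110 and 130 CPM in null libraries, beside 111 and 137 CPM in biotin-positive and 126 and 156 CPM in biotin-negative ones. Mob1a, a partner of the kinase targets of Stk4, was higher in biotin-positive libraries (462 ± 51.9 against 351 ± 24.3 CPM, SD, n = 6 each; log2 0.40, SE 0.09, edgeR adjusted p = 0.00756). Stk3, the paralogue of Stk4, had a log2 difference of -0.01 (SE 0.18). Adk, the adenosine kinase that competes with Ada for adenosine, was lower (2.74 ± 2.37 against 9.74 ± 3.35 CPM; log2 -1.83, SE 0.53, edgeR adjusted p = 0.0425). The Adk call held only without biotin-positive replicate 2 or 4 or biotin-negative replicate 2, and was lost without any other library (0.0512 to 0.0891). With the covariate of detected genes neither Mob1a (adjusted p = 0.761) nor Adk (0.832) was called. Neu1 and Glb1, the partners of Ctsa, had log2 differences of 0.32 (SE 0.17) and -0.22 (SE 0.26), and neither passed. Abca1, a lipid exporter upstream of Pltp in lipoprotein formation, was at 1.93 ± 2.78 against 12.9 ± 9.10 CPM. It did not pass by edgeR (adjusted p = 0.0556) and passed by DESeq2 (0.00485).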

How the data were processed

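RNA was measured by Smart-seq2 (NextSeq500, 38 bp from each end), per the labels' protocols. Per the submitters' processing notes, Bowtie2 2.1.0, RSEM 1.2.8 and DESeq2 1.16.0 were used with build mm10, and the role of each tool and the annotation are not given in the sources used here. The table used here, which the authors deposited, holds expected counts from RSEM, all whole numbers. Groups came from the labels.

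Counts of all 14 libraries entered 1 fit with a group factor in R 4.3.3 with edgeR 4.0.16 (glmQLFit, robust, TMM scaling, filterByExpr at a min.count of 10; 3078 genes were at 0 in every library). Tests were two-sided, and genes were called at a Benjamini-Hochberg false discovery rate of 0.05 over all 14217. An SE is the absolute log2 difference over the square root of F. CPM used TMM-scaled totals, and log2 CPM for correlations a prior count of 2. Precision rests on the spread between libraries and on the total of each, 14518099 to 33260704 counts. Reads carry no molecular identifiers.

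The 10 genes, the lists and the rules were chosen with earlier results of these data known. Besides the members and Cd40, the text names up to 4 genes of the window each way against null libraries and 4 between the biotin groups by smallest p (all at a mean of 5 CPM or more), the tested genes beside Ttpal and Serinc3, 6 relatives by smallest p, and the 5 genes most correlated with each of the pair. Rlbp1 and Pkia, among the 6, averaged under 1.1 CPM in each group. Serinc1, Serinc5, Stk3, Neu1 and Glb1 were added as the closest paralogues or partners, with their values seen. Unnamed loci were passed over by these rules, and 5031425F14Rik and 0610039K10Rik are mentioned apart from them.

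Symbols were placed by RefSeq (23192 of 23420), with strand and exon length from GENCODE M21. Alternatives were DESeq2 size factors, no filter, a filter at 30 counts, DESeq2 1.42.0, limma 3.58.1 voom with quality weights, a fit of the compared pair alone, a block on the replicate number, detected genes as a covariate, and each library left out. The pipeline was tested on simulated counts. A second table, of normalized values, was not used here.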

Additional observations from a re-analysis of the deposited data

Results flagged for a closer look

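Of 20 groups of 6 libraries (10 genes in each biotin group), 3 held a library set apart from the rest of its group by the gap test of Dixon; chance gives this in about 1 in 20 groups. Ttpal was at 29.1 CPM in biotin-negative replicate 2, where the next library was at 43.8 CPM. Ada was at 6.16 CPM in biotin-positive replicate 1, where the next was at 3.84 CPM. Tomm34 was at 202 CPM in biotin-positive replicate 3, where the next was at 162 CPM, and without that library the difference between the biotin groups was 0.30 on the log2 scale (edgeR adjusted p = 0.0936).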

How the results depend on the processing

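Between the biotin groups, Ctsa and Pltp kept their calls with any 1 library left out and under 7 of 8 other settings, all but the covariate of detected genes. Pkig kept its call under 3 of the 8 and Tomm34 under 5. No difference of a member that was called changed sign. Of all genes, 1102 were called, and 11 with that covariate, where 1504 had an unadjusted p under 0.05. In the window of 1.5 Mb 5 were called, against 3 with no filter, 9 by DESeq2, 3 with the replicate number as a block and 0 with the covariate (edgeR; 9 at an unadjusted p under 0.05), and 2 to 4 with 1 library left out (839 to 1106 of all genes).

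For biotin-positive against null libraries 323 genes were called (174 higher, 149 lower), against 791 by DESeq2 (510 and 281), 603 by limma voom (261 and 342) and 129 with the replicate number as a block. With 1 library left out they were 78 to 346, with 78 without null replicate 1 and 95 without replicate 2, where the lone library is assumed to vary like the others. In the window 2 were called, against 1 with no filter, 5 by DESeq2, 1 with only the 2 groups, 1 with the block and 0 to 2 with 1 library left out. For biotin-negative against null libraries 45 were called, against 273 by DESeq2, 29 with only the 2 groups, 19 with the block, 6 with the covariate and 12 to 54 with 1 left out (21 without null replicate 1, 12 without replicate 2). In the window 1 was called, 4 by DESeq2, and 1 with any library left out. The cause of these changes was not tested.

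Over all settings, the log2 difference of Serinc3 from null libraries ran from 0.92 to 1.11 for biotin-positive and from 1.27 to 1.67 for biotin-negative libraries, and that of Ttpal from 0.73 to 1.56 and from 0.52 to 1.39. Both genes were chosen by these differences, so the ranges describe them and support nothing. Replicate numbers did not pair the biotin groups: libraries of the same number had correlated deviations of -0.02 to 0.01, and 1 of 6 correlated best with its own number. With the block, Pkig (adjusted p = 0.138) and Tomm34 (0.0917) were not called between the biotin groups, nor were Dbndd2 (0.0641) and Adk (0.0553). Adk was also not called with only the 2 groups (0.0591). With 2 null libraries, small differences could not be detected, and Ada, at 8 to 168 counts, had the largest SE of the members in both comparisons with null libraries.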
